A study of Mus musculus with 2 samples.

Results

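Plasma cells of the mouse liver were examined as the cells in which Jchain, the gene of the chain that joins antibodies into dimers and pentamers, had at least 10 unique molecular identifiers (UMIs, each standing for 1 captured RNA molecule), Mzb1, the gene of an endoplasmic reticulum (ER) co-chaperone of antibody-making cells, had at least 1 UMI, and Pax5, the gene of the B cell identity factor, had none. Of 7919 kept cells (at least 500 UMIs and 200 genes) from both libraries, 105 of 4209 in the control library met this rule and 6 of 3710 in the NASH library did. Male C57BL/6 mice entered the study at 8 weeks of age and received a control diet or, for NASH (nonalcoholic steatohepatitis, a fatty and inflamed liver), a methionine and choline deficient (MCD) diet for 6 weeks. Nonparenchymal liver cells of 3 mice per diet were pooled before capture, so each diet was 1 library, and no mouse could be told from another. There is therefore no replicate check anywhere below. Every interval is an exact 95% binomial or Poisson interval that covers counting error only. The diets cannot be told apart from the libraries, and the NASH cells are given as this count alone. All values that follow are of the control library.

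Plasma cells are the end stage of the B cell lineage. They give up the receptors and antigen presentation of the B cell and turn much of their RNA and ER to the secretion of 1 antibody, made of a heavy chain, whose constant gene sets the class (IgM, IgG, IgA), and a kappa or lambda light chain. IRF4 and BLIMP-1 (gene Prdm1) drive the program, and the unfolded protein response enlarges the ER. IgA plasma cells arise largely in gut-associated tissue and travel by chemokine receptors and integrins, and the liver, which receives the portal blood of the gut, is one of the places where they are found.

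The tables used here hold 16383 genes, in alphabetical order up to Rad54l2, so every share of UMIs below is of these genes and not of all RNA. Of the 954648 UMIs of the plasma cells, 517355 came from the 275 immunoglobulin genes of the table (54.2%, interval 54.1 to 54.3%). By cell, this share ran from 8.13% to 85.1% with a median of 56.3%. In the other 4104 kept cells of the library, 0.769% of UMIs were from these genes. The 105 cells were 2.49% of kept cells (interval 2.04 to 3.01%), yet they held 86.6% of the immunoglobulin UMIs of all kept cells and 8.37% of all UMIs in the table. A plasma cell had a median of 8889 UMIs (718 to 21822) and 1595 genes (252 to 3624), against a median of 1654 UMIs in the other kept cells. Outside the immunoglobulin genes the median was 3842 UMIs.

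The label was checked against markers that the rule did not use. Of Prdm1, Irf4, Pou2af1 (a coactivator of antibody genes), Derl3, Ell2 (an elongation factor that favours the secreted antibody message) and Eaf2, 100 of 105 cells held at least 3, and none lacked all of them. Derl3 was seen in 99 cells, Pou2af1 in 91, Ell2 in 90, Eaf2 in 88, Irf4 in 86 and Prdm1 in 84. Cd79a, of the B cell receptor complex, was seen in 100 cells and Cd38 in 23. Among cells that met the Mzb1 and Pax5 conditions, Jchain counts left a wide gap. The lowest inside the rule were 15, 19 and 31 UMIs, and the highest outside it were 5, 5 and 5. Of 112 control cells with at least 10 Jchain UMIs, 6 lacked Mzb1 and 1 had Pax5. Kept cells outside the rule reached 719 Jchain UMIs and an immunoglobulin share of 77.7%, and they count among the other kept cells.

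Antibody RNA was also found at a low level almost everywhere, which sets the floor for reading single UMIs. Among the other kept cells 91.8% held an Igkc UMI, 51.5% an Igha UMI and 17.5% a Jchain UMI, with medians of 4, 1 and 0 UMIs per cell. The median plasma cell held 3037 Igkc, 878 Igha and 344 Jchain UMIs. No cell label of a plasma cell occurred in the NASH library, although 21 numeric labels were shared between the libraries.

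Each plasma cell was dominated by 1 heavy chain class, most often IgA. The main constant gene held at least 93.4% of the heavy chain constant UMIs of its cell, with a median of 99.5%. Igha was the main gene in 74 of 105 cells (70.5%, interval 60.8 to 79.0%). An IgG gene was main in 29 cells (27.6%, 19.3 to 37.2%), made up of 12 with Ighg2c, 11 with Ighg2b and 6 with Ighg1. Ighm was main in 2 cells. No cell had Ighd, Ighg3 or Ighe as its main gene, and 0 of 105 allows a share of up to 3.45%. All of these constant genes lie in 1 cluster on the minus strand of chromosome 12 (GRCm38, GENCODE M21), from Ighm (chr12:113418558-113422730) through Ighg1 (chr12:113325240-113330523), Ighg2b (chr12:113302965-113307933) and Ighg2c (chr12:113285325-113288932) to Igha (chr12:113254830-113260236), the last of the row. Igha held 103428 UMIs in the 105 cells, Ighg2b 25308, Ighg2c 21093, Ighg1 16261 and Ighm 3580. The remaining genes were at 5 UMIs (Ighd), 5 (Ighg3) and 2 (Ighe). The lowest dominance was in an Ighg2c cell, in which 192 of 2965 heavy chain UMIs were Igha.

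The median IgG cell had 2483 heavy chain constant UMIs (404 to 3906) and an immunoglobulin share of 64.9% (19.0 to 85.1%). The median IgA cell had 1311 (83 to 3716) and 54.3% (8.13 to 74.9%). The IgG median was the higher in both measures, and the ranges of the classes overlap. The 2 IgM cells had 2073 and 1430 heavy chain UMIs. Jchain, a gene of the rule and so given as a description, had a median of 389.5 UMIs in IgA cells (15 to 1839) and 259 in IgG cells (34 to 957). Per heavy chain UMI the medians were 0.300 Jchain UMIs in IgA cells (0.0850 to 0.570) and 0.132 in IgG cells (0.0385 to 0.370). That every IgG cell held Jchain RNA follows from the rule. Across the 74 IgA cells heavy chain and Jchain UMIs had a Spearman rho of 0.94 and a Pearson r of 0.94, and across the 29 IgG cells a rho of 0.77 and an r of 0.70. These points share 1 library and the depth of each cell.

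**Figure D1:**
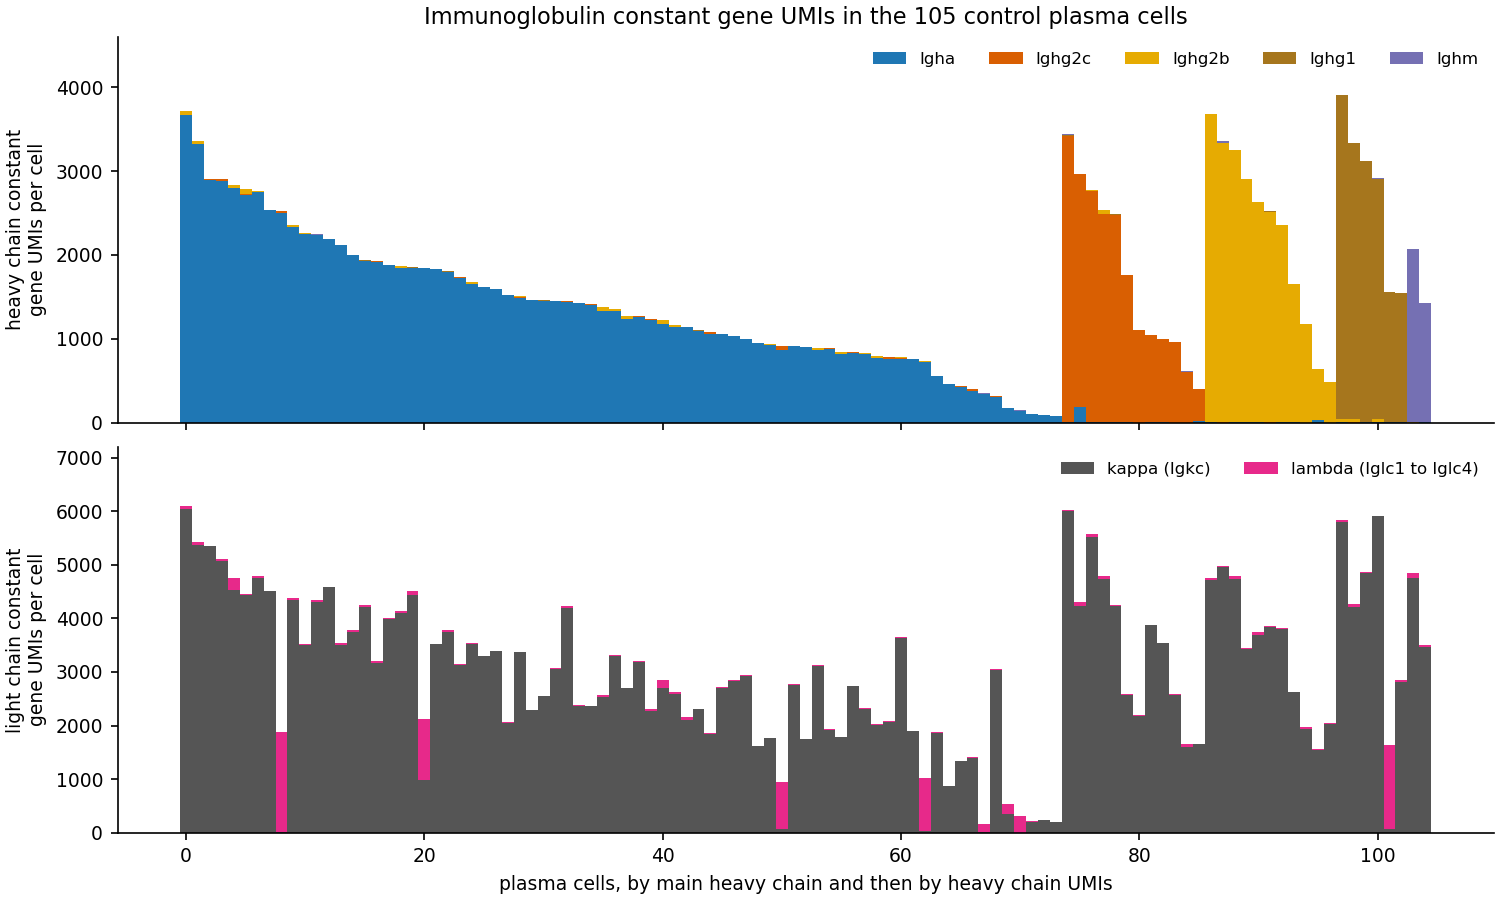
Heavy chain constant UMIs (top) and light chain constant UMIs (bottom) of each of the 105 control plasma cells, as stacked bars on linear axes. Cells are ordered by main heavy chain gene and then by heavy chain UMIs. Nearly every bar has 1 heavy chain colour (at least 93.4% in each cell), and lambda (pink) is the larger part of the light chain in 7 cells.

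Light chains were mostly kappa. Igkc (chr6:70726435-70726966, plus strand) was the main light chain in 98 of 105 cells (93.3%, interval 86.7 to 97.3%) and lambda in 7 (6.67%, 2.72 to 13.3%). Of the lambda cells, 6 were IgA and 1 was Ighg1. In the 6 IgA lambda cells the lambda UMIs were nearly all Iglc1, at 1831, 1134, 990, 840, 271 and 137 UMIs. The Ighg1 cell used Iglc3, with 1569 UMIs, against 1 UMI of Iglc1. Iglc2 and Iglc3 are closely related genes, so reads between them may be split. A single lambda cell also held much kappa, with 979 Igkc and 1134 Iglc1 UMIs. A kappa cell held 348 Igkc and 181 Iglc1 UMIs. Whether these 2 barcodes are single cells with 2 light chains or mixtures was not tested. The median cell held 1.94 light chain UMIs per heavy chain UMI. From cell to cell, heavy and light chain UMIs went together (Spearman rho 0.85 and Pearson r 0.87 over 105 cells of 1 library, depth included).

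The variable (V) genes were diverse. V genes give an antibody its binding site, and each clone of cells carries 1 heavy and 1 light V gene joined to its constant genes. They were counted far more thinly than constant genes, with a median of 24 heavy V UMIs (0 to 314) and 137 light V UMIs (0 to 682) per cell. With at least 5 UMIs of the leading gene required, 88 cells had a main heavy V gene, 98 a main light V gene and 87 both. The main heavy V gene held a median of 97.0% of the heavy V UMIs of its cell, and the main light V gene 91.8%. The 88 cells used 41 heavy V genes, of which 16 were main in 1 cell each. Ighv1-80, Ighv14-2 and Ighv9-3 were each main in 5 cells and Ighv1-64 in 4. The 5 Ighv14-2 cells were all IgA, those of Ighv1-80 were 4 IgA and 1 IgG, and those of Ighv9-3 were 3 IgA and 2 IgG. The 98 cells used 42 light V genes. Igkv10-96 led with 9 cells (7 IgA and 2 IgG), with 105 to 294 UMIs in each. Iglv1, with 7 to 388 UMIs, was main in 8, which were the 7 lambda cells and a cell with 99.6% kappa constant UMIs in which Iglv1 held 66.9% of light V UMIs. Iglv1 UMIs were also seen in 73 other plasma cells. There followed Igkv12-44, Igkv12-46 and Igkv6-32 with 5 each and Igkv1-110 with 4.

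Among the 87 cells with both V genes there were 82 combinations of heavy V gene, light V gene and heavy constant gene. Of these, 77 were seen in 1 cell and 5 in 2 cells each, and none in more. These 5 were IgA by the constant gene. A sixth pair of V genes, Ighv6-3 with Igkv10-94, was main in an Igha cell and in an Ighg2c cell, which had 237 and 58 heavy V UMIs and 420 and 388 light V UMIs in all. Ighv14-2 with Igkv5-39 had 111 and 61 heavy V UMIs and 408 and 377 light V UMIs in its 2 cells. Ighv1-76 with Igkv12-44 had 49 and 54 heavy V UMIs and 129 and 201 light V UMIs. Ighv3-6 with Igkv10-96 had 19 and 184 heavy V UMIs, Ighv2-2 with Igkv19-93 had 21 and 22, and Ighv1-5 with Iglv1 had 12 and 8. Gene counts do not hold the joined sequence, so the same combination does not show the same clone, nor whether the 2 cells came from 1 mouse.

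V genes of a family are much alike, and how far counting can tell them apart is seen in the leading family. Shown are the last 90 bases of the annotated transcripts of Igkv10-96 (chr6:68631963-68632442, minus strand), Igkv10-94 (chr6:68704508-68704978, minus strand) and Igkv10-95 (chr6:68680379-68680848, plus strand) from GENCODE M21, with capitals at each base that is not that of Igkv10-96.
Igkv10-96: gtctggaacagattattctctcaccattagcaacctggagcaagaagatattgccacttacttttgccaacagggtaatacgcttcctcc
Igkv10-94: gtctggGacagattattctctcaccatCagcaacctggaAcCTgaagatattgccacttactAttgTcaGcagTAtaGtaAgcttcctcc
Igkv10-95: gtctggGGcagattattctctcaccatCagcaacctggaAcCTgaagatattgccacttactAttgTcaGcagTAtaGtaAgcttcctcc
Igkv10-94 differed from Igkv10-96 at 12 of the 90 bases and Igkv10-95 at 13. In the 9 cells with Igkv10-96 as main light V gene, 1801 UMIs were of Igkv10-96, 18 of Igkv10-94 and 8 of Igkv10-95. Igkv10-94 was main in 2 further cells and Igkv10-95 in none.

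To see what else sets these cells apart, they were compared with 847 B cells of the same library, taken as cells with at least 2 of 10 B cell markers (among them Ms4a1, Pax5, Fcer2a and Cr2) and under 10 Jchain UMIs. Levels are counts per 1000000 UMIs outside the immunoglobulin genes (CPM), summed over the cells of a class (437293 such UMIs in plasma cells and 2446781 in B cells), and ratios are log2 of plasma cells over B cells with 0.5 UMI added to each sum. Of 5861 genes with at least 50 UMIs over both classes, 673 were at least 2-fold higher in plasma cells (11.5%) and 1285 at least 2-fold lower (21.9%), and the median log2 ratio was -0.14. Since the plasma cells were chosen by their RNA and the B cells by their markers, these ratios describe the 2 classes and test nothing. With all UMIs as the scale, antibody RNA included, every ratio would be lower by 1.10 on the log2 scale.

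The B cell class was not pure. Of its 847 cells, 300 also carried at least 2 UMIs of at least 2 markers of another lineage, and 193 carried Kupffer cell and macrophage markers. The 300 cells also held most UMIs of the class. The marker list for plasmacytoid dendritic cells holds Ly6d, seen in 51.8% of the 847 cells, and Irf8, at 590 CPM in the class. Some of the 300 may therefore be B cells flagged by genes of their own, which was not tested. The gene Asns, at 0 B cell UMIs either way, had log2 ratios of 9.30 against the 847 and 7.34 against the 547. The remaining 547 B cells are used below as a second reference for the identity, MHC class II and named genes. Unless so stated, ratios to B cells are against all 847 cells, mixed barcodes included.

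**Figure D2:**
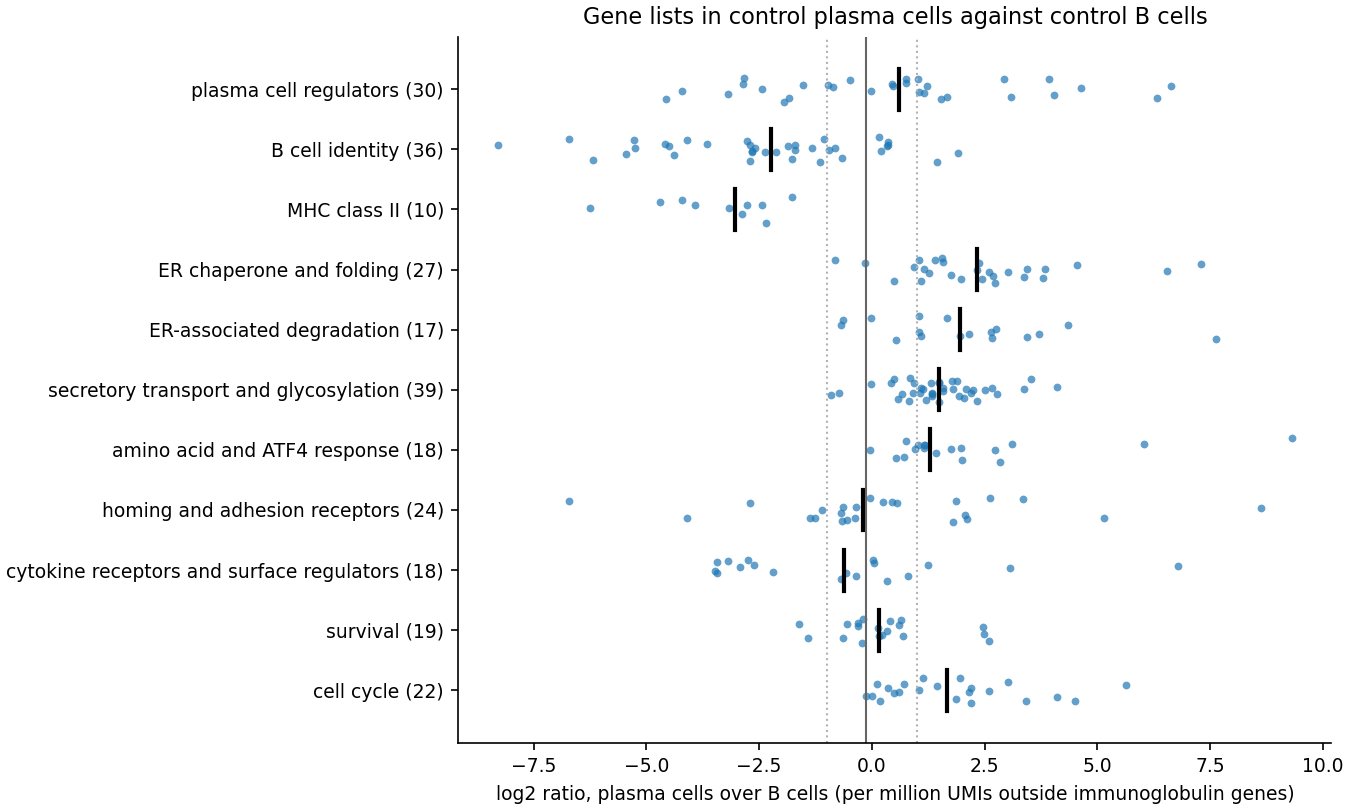
Log2 ratio of plasma cells over B cells (x axis) for each compared gene of 11 gene lists (rows, number of genes in brackets). Each point is a gene, black bars are list medians, the grey line is the median of all 5861 genes (-0.14) and dotted lines are 2-fold. The ER lists lie to the right (medians 2.33 and 1.96), MHC class II and B cell identity to the left (-3.03 and -2.24).

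The ER machinery was higher in plasma cells nearly throughout. Of 27 compared genes for ER chaperones and folding enzymes, 23 were at least 2-fold higher, 4 lay between and none was at least 2-fold lower, with a median log2 ratio of 2.33 against -0.14 for all genes. Of all genes, 11.5% were at least 2-fold higher and 21.9% at least 2-fold lower. Hsp90b1, the ER form of HSP90, was the most abundant of them, with 9269 UMIs in the 105 cells and at least 1 in each (log2 ratio 3.44, interval 3.39 to 3.49). By cell it made up 0.240% to 6.69% of the UMIs outside immunoglobulins, with a median of 1.64%. Hspa5, which encodes BiP, the chaperone that binds free heavy chains, followed with 2692 UMIs and a log2 ratio of 1.98 (1.91 to 2.05). The disulphide isomerase gene Pdia4 had 3.79 (3.63 to 3.96), the peroxiredoxin gene Prdx4 3.83 (3.54 to 4.13) and Creld2 4.55 (4.32 to 4.80). Fkbp11, an ER prolyl isomerase gene, was at 125 UMIs against 4 in B cells (7.29, 6.06 to 9.35). Fam46c, which encodes an enzyme that lengthens poly(A) tails and that was in the list as a plasma cell gene, was at 851 UMIs against 51 (6.53, 6.14 to 6.98). Canx, a lectin chaperone, was higher by less than 2-fold (0.49, 0.36 to 0.63), and Nucb2 was at -0.81 (-1.57 to -0.20).

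Of 17 genes for ER-associated degradation, which returns misfolded proteins to the cytosol, 13 were at least 2-fold higher and none at least 2-fold lower (median 1.96), beside 11.5% and 21.9% of all genes. Derl3, of the channel that passes proteins out of the ER, had the widest ratio, with 794 UMIs in 99 plasma cells against 22 UMIs in 13 B cells (7.63, 7.05 to 8.34). Edem1 (4.34, 4.16 to 4.52) and Edem2 (3.71, 3.42 to 4.003), which mark glycoproteins for removal, and Herpud1 (2.64, 2.48 to 2.81) were also higher. Its relatives Derl1 (1.67, 1.47 to 1.87) and Derl2 (1.09, 0.72 to 1.44) were higher by far less than Derl3.

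Genes for transport and glycosylation on the way from the ER to the surface were higher by less, with 28 of 39 at least 2-fold higher, 11 between and none at least 2-fold lower (median 1.49). The shares of all genes were 11.5% higher and 21.9% lower. Fut8, the fucosyltransferase of antibody glycans, had a log2 ratio of 4.11 (3.70 to 4.54). Lman1, a cargo receptor, had 3.38 (3.18 to 3.59), the oligosaccharyltransferase genes Krtcap2 and Ddost had 2.77 (2.62 to 2.92) and 2.50 (2.32 to 2.68), and B4galt1, which adds galactose, had -0.90 (-1.39 to -0.47).

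The promoters of these ER genes were read for the ER stress response element (ERSE), the motif bound by ATF6 together with NF-Y, written as CCAAT, 9 bases of any kind and CCACG, and searched on both strands in the 250 bases before each RefSeq gene start (GRCm38.p6). Of 27025 genes with such a stretch, 35 held it (0.13%). Of 23 genes in the chaperone list with a stretch, 7 did (Hspa5, Hsp90b1, Calr, Canx, Pdia6, Dnajc3 and Creld2), as did Derl3 and Hsp90b1 among 12 of the degradation list, and none of 33 in the transport list. The matching stretches of the chaperone genes with the clearest ratios and of Derl3 are shown, on the strand of the gene, with the motif or its reverse complement (CGTGG, 9 bases and ATTGG) in capitals. They are Hsp90b1 (chr10:86705608-86705686, minus strand), Pdia6 (chr12:17266461-17266539, plus), Dnajc3 (chr14:118937797-118937875, plus), Creld2 (chr15:88819490-88819568, plus) and Derl3 (chr10:75893212-75893290, plus).
Hsp90b1: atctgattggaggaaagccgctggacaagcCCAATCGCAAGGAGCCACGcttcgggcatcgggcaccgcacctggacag
Pdia6: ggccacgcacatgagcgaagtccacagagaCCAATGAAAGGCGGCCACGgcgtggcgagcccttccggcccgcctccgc
Dnajc3: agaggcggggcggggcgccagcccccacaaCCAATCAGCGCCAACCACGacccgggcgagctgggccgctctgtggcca
Creld2: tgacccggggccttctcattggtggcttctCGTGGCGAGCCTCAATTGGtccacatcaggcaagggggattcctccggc
Derl3: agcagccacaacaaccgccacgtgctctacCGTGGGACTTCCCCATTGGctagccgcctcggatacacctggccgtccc
Their log2 ratios in plasma cells were 3.44, 2.38, 2.60, 4.55 and 7.63 in this order. Canx holds the motif too, with a ratio of 0.49, and Fkbp11, Pdia4 and Prdx4, with higher ratios, do not hold it in this window. Herpud1 held the shorter form ERSE-II (ATTGG, 1 base of any kind and CCACG), which 10 of 27025 genes hold (0.037%). Other motifs were searched as well. The core of the unfolded protein response element, TGACGTGG, stood before 0 of the 23, 0 of the 12 and 3 of the 33 genes, and before 0.603% of all. The octamer ATGCAAAT stood before no gene of the chaperone, degradation or transport list and before 1.81% of all. Matches are a description of letters, not of bound sites.

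Regulators divided as the B cell and plasma cell programs do. Of 30 compared, 13 were at least 2-fold higher, 9 at least 2-fold lower and 8 between, beside 11.5% higher and 21.9% lower over all genes. Bhlha15 (the secretory cell factor MIST1) had 115 UMIs against 6 in B cells (6.64, 5.58 to 8.22), Eaf2 279 against 19 (6.33, 5.69 to 7.11) and Ell2 478 against 107 (4.64, 4.34 to 4.96). Prdm1 had 293 UMIs (4.03, 3.70 to 4.38), Irf4 426 (3.92, 3.66 to 4.20) and Pou2af1 779 (3.08, 2.91 to 3.24). On the other side stood Bcl11a (-4.57, -6.33 to -3.47), Ciita, the switch of MHC class II genes (-4.21, -5.51 to -3.31), Bcl6, the factor of germinal centres (-3.19, -5.70 to -1.84), Ebf1 (-2.85) and Bach2, which holds back Prdm1 (-2.44). The sensors and factors of the unfolded protein response were higher by less, with Ern1 (IRE1) at 1.66 (1.19 to 2.11), Atf6 at 1.53 (1.24 to 1.81), Eif2ak3 (PERK) at 1.05 (0.57 to 1.502) and Atf4 at 0.75 (0.57 to 0.92).

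The amino acid response, the genes that ATF4 induces when amino acids run short, was also higher, with 13 of 18 at least 2-fold higher and none lower by that much (median 1.29). Among all genes compared, 11.5% were higher and 21.9% lower by that much. With all UMIs as the scale, this median too would be lower by 1.10. Asns, asparagine synthetase (chr6:7675169-7693254), was seen at 56 UMIs in 32 plasma cells and at 0 UMIs in the 847 B cells. With the B cells set at 3 UMIs over the class it was 104-fold higher, and its exact interval starts at a log2 ratio of 6.36. Chac1, which breaks down glutathione, had 52 UMIs against 4 (6.03, 4.74 to 8.11), of which 18 were in 1 cell. Psat1 (3.11, 2.39 to 3.88) and Phgdh (2.84, 2.24 to 3.46), of serine synthesis, and Mthfd2 (2.73, 2.15 to 3.33), of mitochondrial folate metabolism, followed. The form TGATGNAAC of the amino acid response element stood in the 250 bases before Asns, Chac1 and Pck2, 3 of 15 genes of this list, and before 205 of 27025 genes overall (0.759%). The Chac1 stretch (chr2:119351018-119351086, plus strand) holds its reverse complement, in capitals.
Chac1: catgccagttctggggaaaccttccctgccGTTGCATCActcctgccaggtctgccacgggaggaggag

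Antigen presentation was low. All 10 genes of the MHC class II list were at least 2-fold lower (median -3.03), beside 21.9% of all genes, though not absent. H2-Oa had no UMI in plasma cells against 213 in B cells. It was 12.7-fold lower with 3 UMIs set for the plasma cells, and its exact interval ends at a log2 ratio of -3.35. H2-Aa had 314 UMIs in 75.2% of plasma cells (-3.18, -3.35 to -3.02) and H2-Ab1 865 UMIs in 94.3% (-1.76, -1.86 to -1.66). The highest single cell held 101 of the H2-Aa UMIs, and for H2-Ab1 it held 136. By cell the list held 0 to 2.88% of UMIs outside immunoglobulins, with a median of 0.338%. The 2.88% was in the Ighg2b cell with the most Kupffer cell and macrophage marker UMIs, described below. How much of the remaining MHC class II RNA is the plasma cells' own was not tested. Against the 547 B cells without markers of another lineage the list median was -4.03.

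Of 36 compared B cell identity genes, 26 were at least 2-fold lower, 8 between and 2 at least 2-fold higher (median -2.24), and 9 of the 10 genes that chose the B cells are in this list. Of all genes compared, 21.9% were at least 2-fold lower and 11.5% at least 2-fold higher. Outside those 10, Cxcr5, the follicle homing receptor, had 0 UMIs against 293. It was 17.5-fold lower with 3 UMIs set for the plasma cells, and its exact interval ends at a log2 ratio of -3.82. Fcmr, the IgM receptor, had 2 against 1022 (-6.19, -9.56 to -4.66), Cd72 6 against 816 (-4.49, -6.05 to -3.47) and Cd40 1 against 200 (-4.58, -10.47 to -2.67). Genes of B cell receptor signalling were spread. The phosphatase gene Ptpn6 had a log2 ratio of -2.65 (-3.11 to -2.25), the kinase genes Lyn and Btk -2.13 (-2.52 to -1.78) and -0.82 (-1.25 to -0.44), and the phosphatase gene Inpp5d -0.66 (-1.10 to -0.26). Cd79a, of the receptor complex, had 0.33 (0.23 to 0.43), Plcg2 0.36 (0.09 to 0.62) and the adaptor gene Blnk 1.45 (1.18 to 1.71). Cd24a, a surface glycoprotein gene, was the other member at least 2-fold higher, at 1.91 (1.74 to 2.07). Against the 547 B cells without markers of another lineage, the median of the list was -3.28.

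The highest and lowest ratios outside the antibody and rule genes came from several roles. Beside Asns, Derl3, Fkbp11, Bhlha15, Fam46c, Eaf2 and Chac1, the 15 highest held Dnah3, a dynein heavy chain gene, with 107 UMIs in 60 plasma cells against 1 UMI in B cells (8.65, 6.72 to 14.54), and Ccr10 with 105 UMIs in 42 plasma cells against 1 (8.62, 6.69 to 14.52). Cd28, better known as a T cell costimulator, had 147 UMIs in 60 plasma cells against 7 (6.78, 5.80 to 8.22). The calcium channel gene Cacna1h had 154 against 8 (6.67, 5.74 to 7.99), the proline synthesis gene Pycr1 56 against 3 (6.50, 5.09 to 9.03), the dynamin gene Dnm3 68 against 3 (6.77, 5.38 to 9.30), Prg2 49 against 2 (6.79, 5.17 to 10.19) and Clec2g 50 against 5 (5.68, 4.49 to 7.49). Against the 547 B cells without markers of another lineage, the log2 ratios of the 15 lay between 4.37 (Clec2g) and 8.24 (Ccr10), and that of Dnah3 was 6.68.

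The 15 lowest were of 2 kinds, which the other lineages in the B cell class separate. Fcer2a and Cr2, which chose the B cells, and Ms4a4c, Cxcr5, H2-Oa, Ffar1, Fcmr and Egr3 drew 12.6% to 35.1% of their B class UMIs from the 300 B cells with markers of another lineage. Abcd2, Fblim1, Iigp1, Kcnj10, P2ry6, Fcgr4 and Plxna4os1 drew 97.7% to 100% of their B class UMIs from those 300 cells. Fcgr4, a macrophage Fc receptor gene, had 1563 UMIs in the B class, of which 1 remained without those cells, and its log2 ratio went from -5.43 to 2.63. The latter value rests on 6 UMIs in 3 plasma cells, 4 of them in 1 cell, and is too thin to give a direction.

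**Figure D3:**
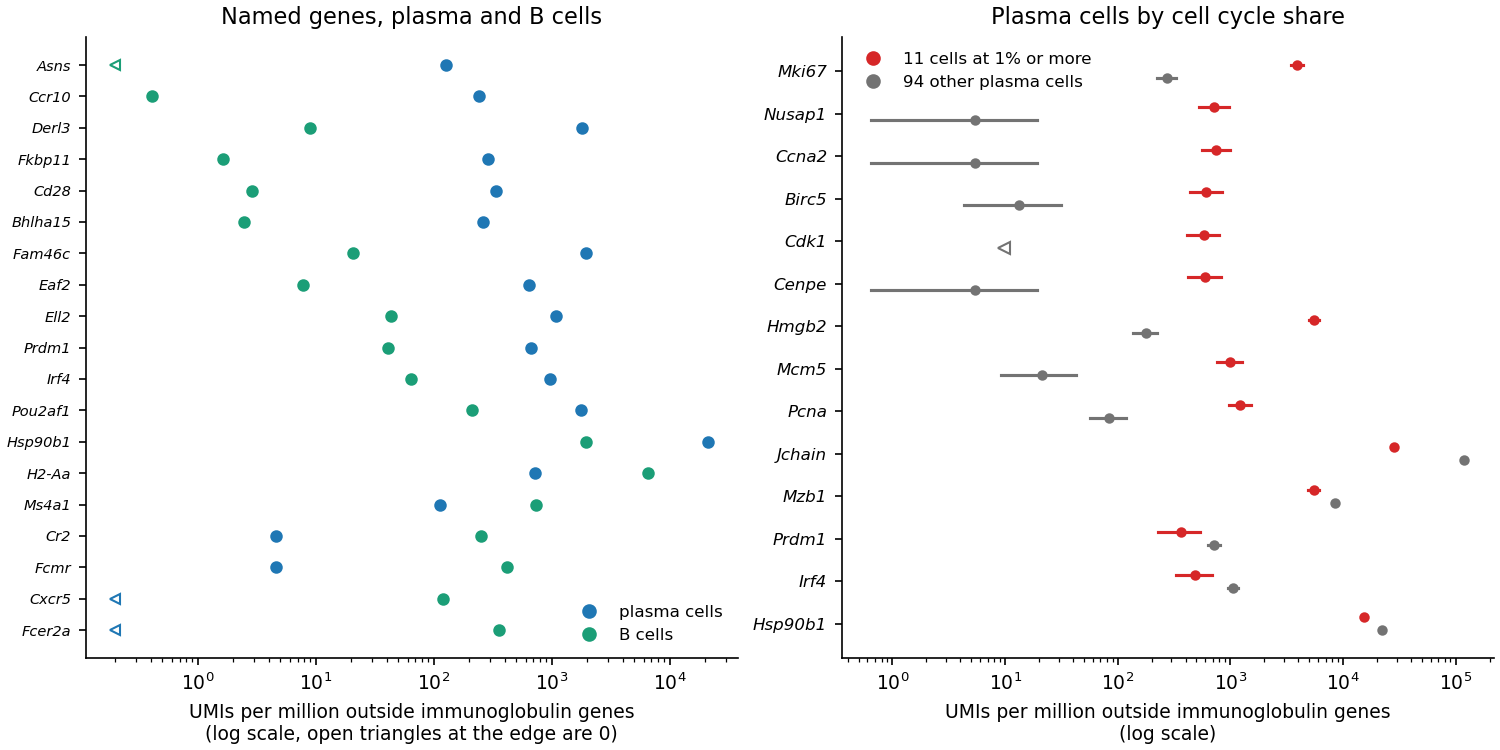
Left, CPM outside immunoglobulin genes (log x axis) of named genes in 105 plasma cells (blue) and 847 B cells (green), with open triangles for 0 UMIs. Right, the same measure in the 11 plasma cells with a cell cycle share of at least 1% (red) and the 94 others (grey), with exact 95% Poisson intervals (counting error only) and an open triangle at the upper bound where no UMI was seen. The 11 cells were chosen by their cycle genes, so Mki67 and the like are higher in them by choice, and Jchain and Mzb1 are genes of the plasma cell rule. Prdm1 and Irf4 are lower in the 11 cells.

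Surface receptors followed no single direction. Over all genes compared, 11.5% were at least 2-fold higher and 21.9% at least 2-fold lower. Of 24 homing and adhesion genes, 8 were at least 2-fold higher, 6 at least 2-fold lower and 10 between (median -0.20). Their lower share was near that of all genes. Beside Ccr10, those higher included Ly6c2 (5.15, 4.97 to 5.33), Cxcr3 (3.36, 2.72 to 4.04) and both chains of the gut homing integrin, Itgb7 (2.61, 2.40 to 2.82) and Itga4 (2.11, 1.97 to 2.24). Among those lower were Cxcr5, Ccr6 (-4.11, -10.00 to -2.18) and Ccr7 (-2.71, -4.29 to -1.68), receptors of lymphoid tissue. Of 18 cytokine receptor and surface regulator genes, 3 were at least 2-fold higher and 8 at least 2-fold lower (median -0.63), with Cd28, Lax1 (3.06, 2.85 to 3.27) and Cd274 (1.25, 0.88 to 1.60) on one side and Ifngr1 (-3.48), Cd86 (-3.43) and Il21r (-3.43) on the other. Of 19 survival genes, 3 were at least 2-fold higher, 2 at least 2-fold lower and 14 between (median 0.16), shares near or under the 11.5% and 21.9% of all genes. Those higher were the kinase genes Pim2 (2.60, 2.18 to 3.03) and Pim1 (2.48, 2.37 to 2.59) and the death receptor gene Fas (2.45, 1.81 to 3.09), and those lower were Birc3 (-1.61, -2.29 to -1.04) and Nfkb1 (-1.41, -1.91 to -0.98). Mcl1, on which plasma cell survival is known to depend, had 451 UMIs in 89.5% of plasma cells and a ratio of 0.16 (0.01 to 0.31).

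IgA and IgG plasma cells were compared over the sums of their cells, without a test. Of 1621 genes with at least 50 UMIs over the 74 IgA and 29 IgG cells, 74 were at least 2-fold higher in IgA cells (4.57%) and 61 at least 2-fold lower (3.76%), and the median log2 ratio of IgA over IgG was 0.06. Of 27 homing and adhesion genes 17 had enough UMIs, of which 1 was at least 2-fold higher in IgA cells, 7 at least 2-fold lower and 9 between (median -0.61). Ccr10 (chr11:101172997-101175443) encodes the receptor of the chemokines CCL27 and CCL28. It had 103 UMIs in 40 of 74 IgA cells and 2 UMIs in 2 of 29 IgG cells, a log2 ratio of 4.06 (2.49 to 7.44). No IgA cell had more than 7. It was seen in 6 of the other 4104 kept cells of the library (0.146%). Ccr9 (chr9:123678439-123784330), the receptor for the small intestine chemokine CCL25, had 32 UMIs in 9 IgA cells, 10 of them in 1 cell, and none in IgG cells. It was 4.30-fold higher with 3 UMIs set for the IgG cells, and its exact interval starts at a log2 ratio of 1.72. With under 50 UMIs, it is not among the 17 genes. By cell it was seen in 12.2% of IgA cells (5.71 to 21.8%) and 0% of IgG cells (0 to 11.9%), intervals that overlap. Of the 32 UMIs, 16 lay in 2 of the 11 cells with a cell cycle share of at least 1%, described below. Ccr9 is also a gene of plasmacytoid dendritic cells, and 8 of the 10 markers on that list were detected, with 251 UMIs in IgA cells (0.0817% of UMIs outside immunoglobulins, 0 to 0.586% by cell) and 146 in IgG cells (0.118%, 0 to 0.439%), while Klk1 and Cd209d were at 0. At least 2 of them at 2 UMIs or more were carried by 14 IgA and 8 IgG cells, and their part in the Ccr9 values was not tested. The integrin genes Itga4 (647 UMIs in IgA and 140 in IgG cells, log2 ratio 0.89, 0.63 to 1.17) and Itgb7 (309 and 79, 0.65, 0.30 to 1.03) were higher in IgA cells by less than 2-fold.

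Cxcr4, the receptor of CXCL12 that holds plasma cells in bone marrow, went the other way. It had 40 UMIs in 14 IgA cells (130.1 CPM, 93.0 to 177) and 59 UMIs in 18 IgG cells (476 CPM, 362 to 614), a log2 ratio of -1.86 (-2.49 to -1.27). Cxcr3 had 32 UMIs in 18 IgA cells and 27 in 9 IgG cells (-1.07, -1.85 to -0.27), 9 of the 27 in 1 cell. Without the cell with the most Cxcr3 UMIs in each class its ratio was -0.69, less than 2-fold. It was seen in 24.3% of IgA and 31.0% of IgG cells. Ly6c2 was at 433 UMIs in 44 IgA cells and 1379 in 25 IgG cells (-2.98, -3.14 to -2.82), with a median of 1 UMI in an IgA cell and 18 in an IgG cell. A single IgG cell held 324 of the 1379. Ly6a (Sca-1) was at 385 in 44 IgA and 556 in 26 IgG cells (-1.84, -2.03 to -1.65). Ly6c1 and Ly6c2 are near-identical, so their split is uncertain. Itgb1 (148 and 92 UMIs), Itgal (146 and 84) and Itgb2 (138 and 85) had log2 ratios of -0.63, -0.52 and -0.61. The remaining members at least 2-fold lower were Cd93 (33 and 32 UMIs, -1.27, -2.01 to -0.52), Ly6d (67 and 58, -1.10, -1.63 to -0.57) and the tetraspanin gene Cd81 (126 and 105, -1.05, -1.43 to -0.66).

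Ccr10 was rare with each IgG gene. It had 1 UMI in the 6 Ighg1 cells, 0 in the 11 Ighg2b cells and 1 in the 12 Ighg2c cells. Cxcr4 was seen in 5 of 6 Ighg1, 6 of 11 Ighg2b and 7 of 12 Ighg2c cells, and in both IgM cells. Ly6c2 was seen in 5, 10 and 10 of these IgG cells, with 294, 777 and 308 UMIs. Itgb7 was at 579, 445 and 947 CPM in the same order, against 1005 in Igha cells, so its Ighg2c level was near that of IgA. Itga4 was at 507, 1263 and 1371 CPM, against 2105 in Igha cells. The share of cells with Itga4 was not higher in IgA, at 82.4% of IgA and 89.7% of IgG cells.

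The shares of cells were also read at equal depth. IgA and IgG cells had median depths of 3808 and 4104 UMIs outside immunoglobulins. With each cell thinned to 2000 such UMIs (67 IgA and 23 IgG cells were deep enough), Ccr10 was seen in 44.8% of IgA cells (interval 32.6 to 57.4%) and 8.70% of IgG cells (1.07 to 28.0%), where the unthinned shares were 54.1% and 6.90%. Cxcr4 was seen in 14.9% (7.40 to 25.7%) and 60.9% (38.5 to 80.3%), unthinned 18.9% and 62.1%, and Ly6c2 in 55.2% and 87.0%, unthinned 59.5% and 86.2%.

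**Figure D4:**
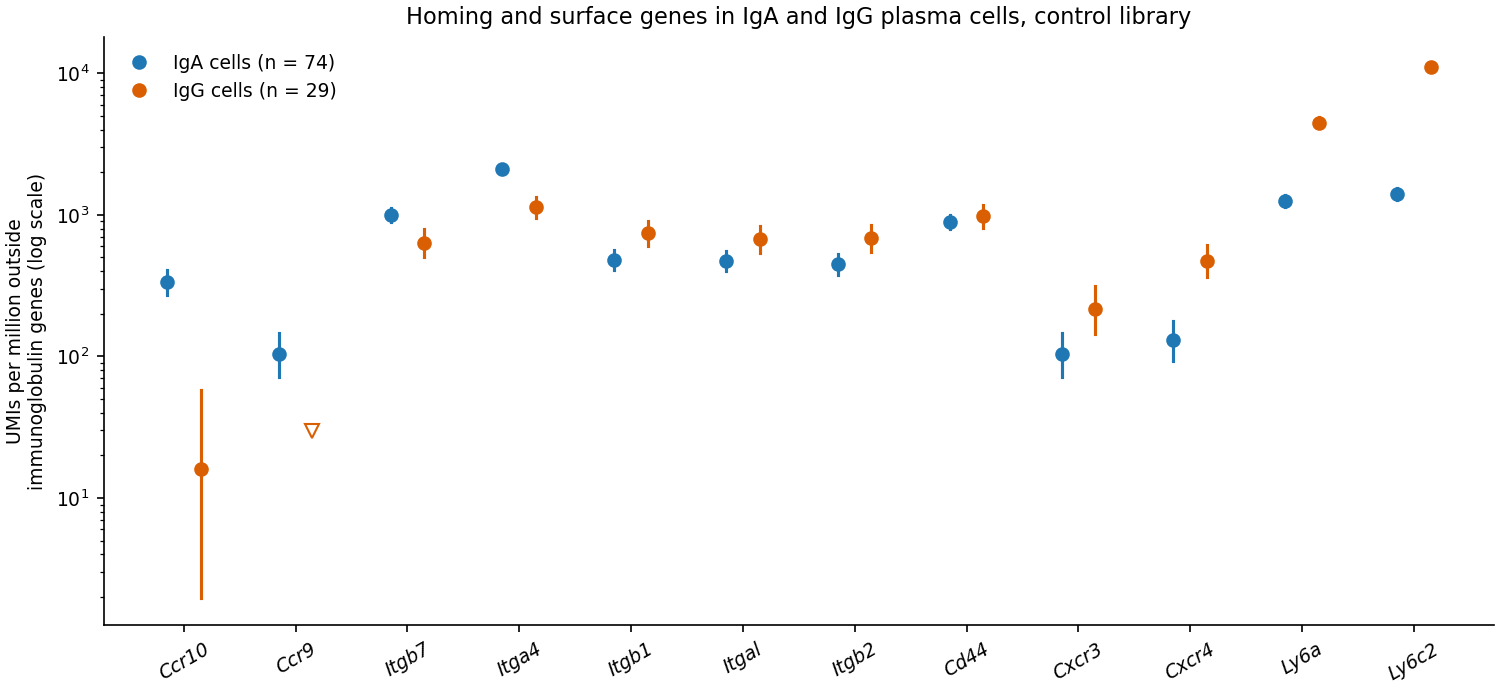
CPM outside immunoglobulin genes (log y axis) of homing and surface genes in 74 IgA (blue) and 29 IgG (orange) control plasma cells. Points are levels summed over the cells of a class, lines are exact 95% Poisson intervals (counting error only), and the open triangle is the upper bound for Ccr9 in IgG cells, which had 0 UMIs. Ccr10, Itgb7 and Itga4 are higher in IgA cells and Cxcr4, Ly6a and Ly6c2 in IgG cells. Ccr9 rests on 32 UMIs in 9 IgA cells.

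Some of the lower genes in this comparison belonged to 1 barcode. The 8 Kupffer cell and macrophage markers (Clec4f, Cd5l, Adgre1, Csf1r, C1qa, C1qb, Marco and Lyz2), all detected, made up 0.0745% of UMIs outside immunoglobulins in IgA cells (0 to 0.350% by cell) and 0.564% in IgG cells (0 to 3.91%). An Ighg2b cell held 610 of their 699 UMIs in IgG cells. With 15598 UMIs outside immunoglobulins, 12.6% of all those in IgG cells, it was the deepest plasma cell. Without it 29 genes were at least 2-fold lower in IgA cells in place of 61, and 73 higher in place of 74. The log2 ratios of the genes above were then 3.87 for Ccr10, -1.93 for Cxcr4, -3.15 for Ly6c2, -1.94 for Ly6a, 0.75 for Itga4 and 0.46 for Itgb7, and -0.68 for Cd81, which was then less than 2-fold lower.

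Outside the homing list, and chosen after their values were seen, IgA cells were higher in Osbpl5, a lipid transfer gene (83 UMIs in 43 cells against 4 in 4, log2 ratio 2.90, 1.66 to 4.97), Foxp4, a forkhead factor gene (57 in 32 against 2 in 2, 3.21, 1.60 to 6.60), Atp1b1, of the sodium pump (334 in 38 against 32 in 7, 2.05, 1.55 to 2.65), and Ets1, a factor known to hold back plasma cell formation (152 in 50 against 17 in 9, 1.81, 1.12 to 2.67). Prg2 was lower in IgA cells, with 16 UMIs in 8 cells against 33 in 12. The secretory program was close in both classes, since the lists for ER chaperones, degradation and transport had medians of 0.14, 0.21 and 0.15, and 0, 0 and 0 genes at least 2-fold higher and 1, 1 and 0 at least 2-fold lower in IgA cells.

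A few plasma cells had a high share of cell cycle RNA. The 37 cell cycle genes made up a median of 0.202% of UMIs outside immunoglobulins, but 11 cells lay at 1.34% to 3.80%, and no cell lay between 0.728% and 1.34%. The limit of 1% was set after this gap was seen. These 11 cells (10.5% of 105, interval 5.35 to 18.0%) were 8 of 74 IgA and 3 of 29 IgG cells. By that choice they hold most UMIs of the list, which is a description and no finding. They held 250 of 352 Mki67 UMIs, 355 of 421 Hmgb2 UMIs, 48 of 50 Ccna2 UMIs and all 37 Cdk1 UMIs. Mki67 marks cells outside rest, Ccna2 and Cdk1 drive S phase and mitosis, and Mcm5 (63 of 71 UMIs) and Pcna (78 of 109) act at replication. Of 22 cycle genes with enough UMIs for the comparison with B cells, 14 were at least 2-fold higher in plasma cells and none at least 2-fold lower (median 1.66), and 15 had too few. For all genes compared, the shares were 11.5% higher and 21.9% lower. The plasma cell sums include the 11 cells, which held most UMIs of several of these genes. Ratios without the 11 cells were not computed, so the count does not describe the other plasma cells.

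These 11 cells, called cycling here, lay low in antibody RNA. Their immunoglobulin share had a median of 29.2% (12.6 to 49.96%), against 58.1% (8.13 to 85.1%) in the 94 others. They had a median of 613 heavy chain UMIs (83 to 1104) against 1553 (110 to 3906), and the ranges overlap. At the same time their median of UMIs outside immunoglobulins was higher, at 5655 (430 to 9621) against 3818 (456 to 15598). The shallowest of the 11 cells had 529 and 430 such UMIs, so their cycle shares of 2.84% and 1.63% rest on few UMIs. Pou2af1 was at 1929 CPM (1603 to 2302) in cycling cells and 1756 (1624 to 1896) in the others, Irf4 at 486 (330 to 690) and 1057 (956 to 1167), and Prdm1 at 361 (229 to 541) and 723 (639 to 814). Of the 11 cells, 5 carried at least 2 markers of another lineage at 2 UMIs or more, 1 of them Kupffer cell markers. The part of such mixed barcodes in the cycling share was not tested.

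**Figure D5:**
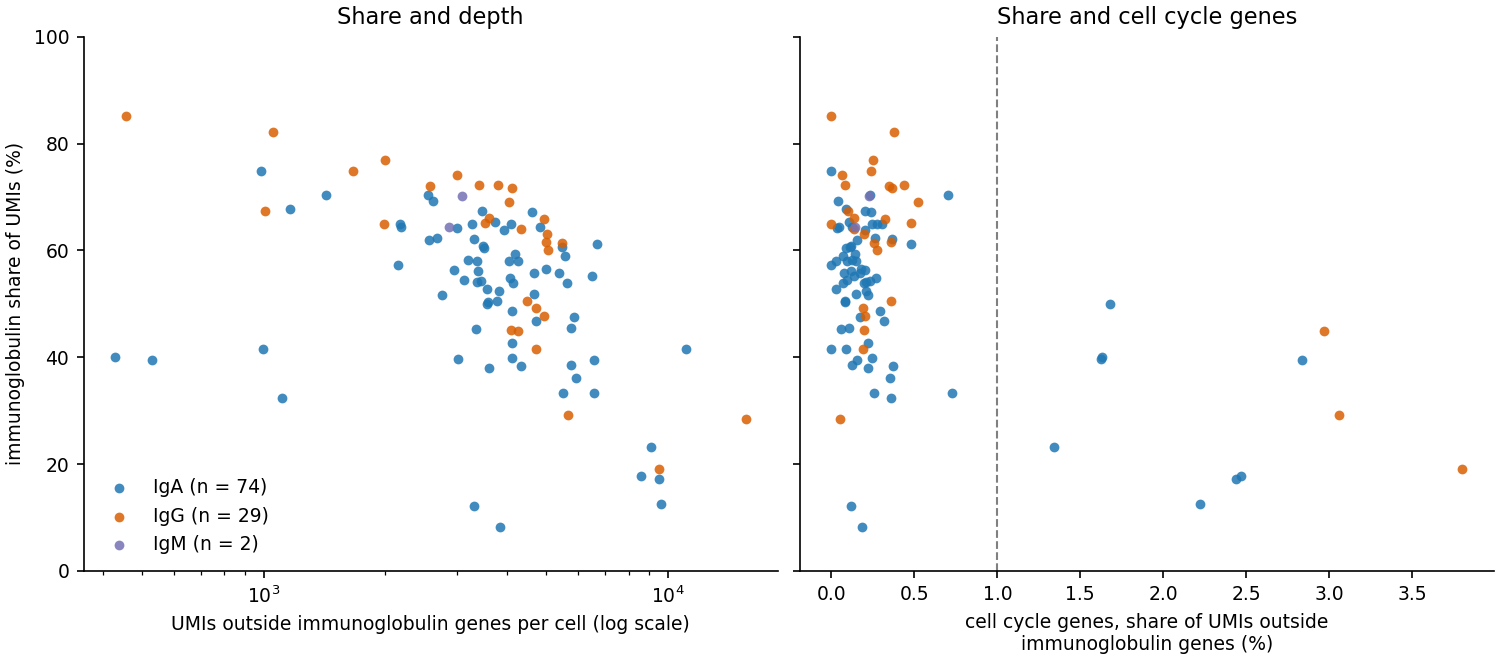
Immunoglobulin share of UMIs (y axis, %) in each control plasma cell against its UMIs outside immunoglobulin genes (left, log axis) and against the share of those UMIs in cell cycle genes (right, dashed line at 1%). Points are cells, coloured by class. The 11 cells right of the line have shares of 12.6 to 49.96%.

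Markers of other lineages were present in many plasma cells at low levels. With at least 2 markers at 2 UMIs or more each, 52 of 105 cells carried those of some other lineage. These were 24 cells for endothelial cells (all 8 markers detected, 0 to 1.99% of UMIs outside immunoglobulins by cell, median 0.0836%), 23 for plasmacytoid dendritic cells (8 of 10 detected, 0 to 0.586%, median 0.0601%), 13 for Kupffer cells and macrophages, 2 for T cells and 1 for neutrophils, and 0 for NK cells, hepatocytes and cholangiocytes. Cells may carry several. The plasmacytoid list holds Irf8 and Ly6d, and Ly6d was also seen in 51.8% of the 847 B cells. The 23 cells, and so the 52, may include plasma cells flagged by genes of their own lineage, which was not tested. Without these 52 cells the immunoglobulin share was 54.7%, and the median log2 ratio of the MHC class II list was -3.63.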

How the data were processed

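Liver nonparenchymal cells were profiled by single-cell RNA-seq, 1 library per diet. The labels' protocol names BD Rhapsody capture, while a label also names 10x Genomics. The authors made the deposited counts, UMIs per gene and cell, with the BD whole transcriptome pipeline on GRCm38. The deposited tables end alphabetically at Rad54l2, and later genes (Sdc1, Xbp1, Tnfrsf17) were not analysed here. The NASH table has no header line and was read in the control column order. No doublet caller was run. With 1 library per group no test was made. UMIs were summed per class with Python 3.11.15 and pandas 2.3.3, and 95% Clopper-Pearson or Poisson intervals came from scipy 1.17.1. A gene at 0 was set at 3 UMIs over the group to give a fold, which is not an interval bound. Named genes were the 15 highest and the 15 lowest ratios against B cells, beside members of the gene lists. The ratio script was tested on simulated data. Some items are not reported here. The plasma cell rule and the lists were chosen with earlier results of these data known. Totals were 11452972 UMIs in 4336 control cells and 9326723 in 3893 NASH cells.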

Additional observations from a re-analysis of the deposited data

How the results depend on the processing

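Of 88 values recomputed under alternatives, 62 stayed within a tolerance, 26 moved past it and 0 reversed. The tolerance was 1.5 times for a count, the 95% counting interval for a share, which is narrow for the immunoglobulin share, and the median half-width of its genes' intervals for a list median. Within it, genes at least 2-fold higher still ranged from 478 (B cells by at least 3 markers) to 955 (genes with at least 20 UMIs, 7125 compared). Against B cells without markers of another lineage, 907 of 3756 compared genes were at least 2-fold lower. The main comparison had 5861 genes, so these counts are not parts of the same total. No paired analysis was possible because each diet was 1 library. Read 1 column to the right or left, the NASH table gave 0 and 0 cells in place of 6. The immunoglobulin share of 54.2% was 54.0% with at least 5 Jchain UMIs, 54.4% with at least 20, 54.7% without cells with 2 markers of another lineage, 53.6% without the tenth of cells with the most UMIs and 56.3% as the median over cells. With all UMIs as the scale, 196 genes were at least 2-fold higher and 3513 lower, and the list medians were 1.23 (ER chaperones), 0.39 (secretory transport), -3.35 (B cell identity) and -4.13 (MHC class II). At 1.5-fold, 1243 genes were higher. The ER chaperone median was 1.98 with genes of at least 20 UMIs. As means over cells, B cell identity was at -3.04 and MHC class II at -3.87. With B cells by at least 3 markers, B cell identity was at -2.76. Without plasma cells with markers of another lineage, MHC class II was at -3.63. Alternatives chosen after seeing the data followed. Against B cells without markers of another lineage, the medians were 2.86 (ER chaperones), 1.91 (secretory transport), -3.28 (B cell identity) and -4.03 (MHC class II). Without cells with a cell cycle share of at least 1%, the immunoglobulin share was 57.0%. Genes at least 2-fold lower in IgA than in IgG cells were 29 without the cell with the most Kupffer cell marker UMIs and 39 without all cells with 2 such markers. The causes of these moves were not tested. With pooled mice and 1 library per diet, intervals cover counting error only.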
